A study of Mus musculus with 2 samples.

Results

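Immediate early genes are 10 genes of the mouse genome in these tables, Fos, Fosb, Fosl2, Jun, Junb, Egr1, Arc, Npas4, Nr4a1 and Ier2, out of 43346 Ensembl genes listed. They were chosen by name, and each was found by its Ensembl identifier in the gene and transcript tables of both libraries. The libraries were made from forebrain of newborn mice of strain B6NTac;B6NCrl/Lap at 0 days of age, with males and females pooled, as rRNA-depleted, stranded total RNA, from separate tissue isolates. Replicate 1 came from 15 mice, and the number pooled for replicate 2 is not given in the labels. The labels name no treatment, genotype change or stimulus, and the libraries form 1 group (n = 2), so a response to stimulation could not be measured and the values below are levels in dissected tissue with no labelled stimulus. Whether the tissue was at rest was not tested. Both samples carry the same donor identifier, so an SD measures the spread between these isolates only and may be technical. Replicate 1 held 62516003 expected counts (estimated fragment counts) and replicate 2 held 65912060.

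Immediate early genes are transcribed within minutes of a stimulus from transcription factors already present in the cell, without new protein synthesis. In neurons the trigger is calcium entry or growth factor signalling, which acts through the factors SRF with its ternary complex partners, CREB and MEF2. Most of their mRNAs and proteins are short-lived, and the group is widely used as a marker of recent neuronal activity, although several members also respond to growth factors and stress in glia and vessels. Fos, Fosb and Fosl2 encode Fos-family proteins that pair with the Jun-family proteins Jun and Junb to form the transcription factor AP-1. Egr1 encodes a zinc finger factor, Nr4a1 an orphan nuclear receptor, Npas4 a neuronal factor of the basic helix-loop-helix PAS class, Ier2 a short nuclear protein, and Arc a synaptic protein related to retroviral Gag that promotes removal of AMPA receptors.

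Promoter windows of 250 bases before to 50 after the start site were found in the RefSeq table (GRCm38.p6) for 7 of the 10 members, Fos, Fosb, Fosl2, Jun, Junb, Npas4 and Nr4a1. The CREB core TGACG, searched on both strands, was present in 5 of these 7 windows and in 20.8% of all 32851 windows. The full CREB palindrome TGACGTCA, which contains that core, and the CArG box bound by SRF were in none of the 7 windows, against 1.79 and 1.63% of all windows. Sequence further than 250 bases before the start site was not searched, and Egr1, Arc and Ier2 had no window. Start sites are those of RefSeq. The windows of Fosl2, Npas4 and Nr4a1 lie inside the GENCODE M21 gene bounds given below, so sequence before those bounds was not searched. Absence from these windows therefore does not show that a member lacks either element. TATAAA, searched on the gene's own strand, was in the windows of Fos and Junb and in 8.32% of all windows. In Junb it began at the RefSeq start site itself, at position 1. The GENCODE M21 gene bound of Junb given below (84978718) lies downstream of that site. Counted from that bound, the TATAAA of Junb would lie before the start. By RefSeq starts only Fos held TATAAA before the start site, against 7.59% of all windows. In Fos the core lay at positions -129 and -66 and TATAAA at -33, counted back from the base before the start site as -1. Matches are descriptions of these letters, not evidence of binding. The last 90 bases before the start site are shown for Jun, which had the highest level among the members, for Fosb, which had the lowest, and for Fos and Nr4a1, which held the core in this stretch. Capitals mark TGACG, its reverse complement CGTCA, or TATAAA.
Jun (chr4:95052223-95052312, minus strand): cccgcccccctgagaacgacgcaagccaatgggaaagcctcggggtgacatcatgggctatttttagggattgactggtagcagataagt
Fosb (chr7:19310046-19310135, minus strand): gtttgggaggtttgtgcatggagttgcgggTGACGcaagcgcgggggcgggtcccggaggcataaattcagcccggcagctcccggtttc
Fos (chr12:85473800-85473889, plus strand): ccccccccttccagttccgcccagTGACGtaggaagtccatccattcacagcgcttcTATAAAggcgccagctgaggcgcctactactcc
Nr4a1 (chr15:101266756-101266845, plus strand): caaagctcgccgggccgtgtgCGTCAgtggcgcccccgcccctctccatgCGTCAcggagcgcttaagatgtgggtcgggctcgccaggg

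The 3' UTRs of the members were searched for AU-rich elements, sequences known to speed mRNA decay, in the most abundant transcript of each gene that has one in GENCODE M21. The pentamer ATTTA occurred in 8 of 10 members, against 60.1% of 19879 protein-coding genes with a 3' UTR and 79.6% of the 11616 genes with a UTR in the members' length range. Nr4a1 held 3 copies in 543 nt, Fos 4 in 815 nt, Junb 2 in 485 nt, Jun 4 in 1233 nt and Fosl2 8 in 4653 nt, while Arc (1668 nt) and Ier2 (755 nt) held none. The longer element TTATTTATT, which contains the pentamer, was found in Fos and Fosl2, 2 of 10 members, against 6.54% of all these genes and 8.62% of those in the length range. Both sites are shown because they are the only copies of the longer element among the members, with the element in capitals.
Fos-201, 3' UTR position 655: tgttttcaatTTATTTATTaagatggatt
Fosl2-201, 3' UTR position 3692: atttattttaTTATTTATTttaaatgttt

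All 10 members were detected, and 9 reached 1 coding TPM in both libraries, against 63.3% of 21474 protein-coding genes. Coding TPM is the deposited TPM, a level of transcripts corrected for length and depth, rescaled so that protein-coding genes alone make up the full total. The members had medians of 7.90 and 8.38 coding TPM in replicates 1 and 2, and protein-coding genes as a whole had medians of 7.46 and 8.81. The highest member exceeded the lowest 39.7-fold in replicate 1 and 19.3-fold in replicate 2. Jun and Fosl2, the members with the most counts, together held 46.8 and 44.9% of the members' summed level, although Junb lay between them in level. At gene level the deposited posterior SD of the count, a measure of how far reads could be assigned elsewhere, was 0 for each of the 10 members.

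**Figure D1:**
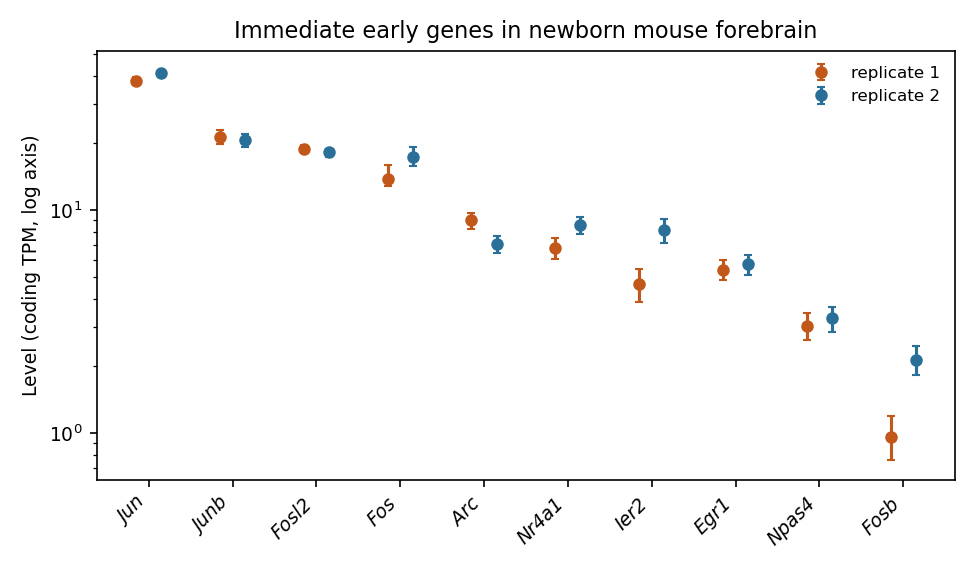
Level of each immediate early gene in coding TPM (log axis) in replicate 1 and replicate 2, ordered by the mean. Points are the deposited estimates after rescaling and bars the deposited TPM bounds, whose level is not stated. Jun is highest at 38.1 and 41.2 coding TPM and Fosb lowest at 0.960 and 2.13.

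The Jun-family members were the highest of the group. Jun (ENSMUSG00000052684.4, mm10 chromosome 4, 95049034 to 95052222, minus strand), the founding AP-1 subunit and a gene without introns, had 2459 and 2896 counts, or 38.1 and 41.2 coding TPM. It stood above 75.8 and 76.0% of protein-coding genes. Junb (chromosome 8, 84974484 to 84978718, minus strand), a Jun protein that often restrains growth, had 744 and 781 counts and levels of 21.3 and 20.7 coding TPM. The level of Junb was 0.558 and 0.501 times that of Jun within the libraries. Junos, an antisense gene, shares 232 exonic bases with Jun but had 9 and 10 counts. Prdx2, on the strand opposite Junb, shared no exonic base with the Junb transcript in the deposited tables.

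The relative of these genes outside the group, Jund, was far higher than either. Jund, an AP-1 subunit regarded as constitutively expressed, had 179 and 214 coding TPM and held 75.1 and 77.6% of the summed level of the 3 Jun-family genes. Jun held 16.0 and 14.9% of that sum and Junb 8.91 and 7.48%. The order Jund, Jun, Junb was the same in both libraries, and the deposited TPM bounds of the 3 genes did not overlap in either.

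In the Fos family, Fosl2 and Fos were at similar levels and Fosb was far lower. Fosl2 (chromosome 5, 32135801 to 32157842, plus strand), which encodes Fra-2, had 2331 and 2447 counts and 18.9 and 18.2 coding TPM. Fos (chromosome 12, 85473890 to 85477273, plus strand), the classical activity marker, had 532 and 664 counts and 13.7 and 17.3 coding TPM. Their bounds were separate in replicate 1, at 18.1 to 19.7 for Fosl2 and 12.9 to 15.9 for Fos, and overlapped in replicate 2, at 17.4 to 18.8 and 15.8 to 19.3. Fosl2 is counted over an mRNA of 5855 nt and Fos-201 over 2108 nt, so their counts lie further apart than their levels per length.

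Fosb (chromosome 7, 19302696 to 19310051, minus strand), a Fos protein whose truncated form accumulates with repeated stimulation, had 74 and 179 counts. With exact Poisson intervals of 58.1 to 92.9 and 154 to 207 counts, its level was 0.960 coding TPM in replicate 1 and 2.13 in replicate 2. The ratio of Fosb to Fos was 0.0699 in replicate 1 and 0.123 in replicate 2. Fosl1, which encodes the remaining family member Fra-1, had no counts in replicate 1, which allows up to 3, against 7 in replicate 2. Fosl2 made up 56.3 and 48.1%, Fos 40.9 and 45.8% and Fosb 2.86 and 5.64% of the family's summed level.

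The remaining transcription factors of the group lay between Fos and Fosb. Nr4a1 (chromosome 15, 101254269 to 101274795, plus strand) had 331 and 456 counts and 6.79 and 8.58 coding TPM. Its level was 0.495 times that of Fos in each library. Egr1 (chromosome 18, 34859823 to 34864984, plus strand) had 356 and 416 counts and 5.39 and 5.72 coding TPM, a mean of 5.56 with an SD of 0.233. Ier2 (chromosome 8, 84661331 to 84662852, minus strand), another gene of a single exon, had 130 and 246 counts and 4.65 and 8.17 coding TPM, so that it lay below Egr1 in replicate 1 and above it in replicate 2.

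Egr1 and Nr4a1 were not the leading genes of their families. Egr3, a factor induced by activity in neurons, had 9.08 and 6.40 coding TPM and exceeded Egr1 in both libraries, although the deposited bounds overlapped in replicate 2, at 5.44 to 7.31 for Egr3 and 5.14 to 6.26 for Egr1. Egr4 had 1.62 and 1.13 coding TPM. Egr2, a regulator of hindbrain patterning and Schwann cell myelination, had 2.36 and 1.27 coding TPM, below its own deposited bounds, so its level is uncertain. Nr4a2, a factor of dopamine neurons and of the deep cortex, had 29.6 and 25.4 coding TPM and Nr4a3 14.5 and 13.0, and the order Nr4a2, Nr4a3, Nr4a1 held in both libraries with bounds that did not overlap. Ier5 and Ier5l, relatives of Ier2, had 46.2 and 44.2 and 19.3 and 17.0 coding TPM.

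**Figure D2:**
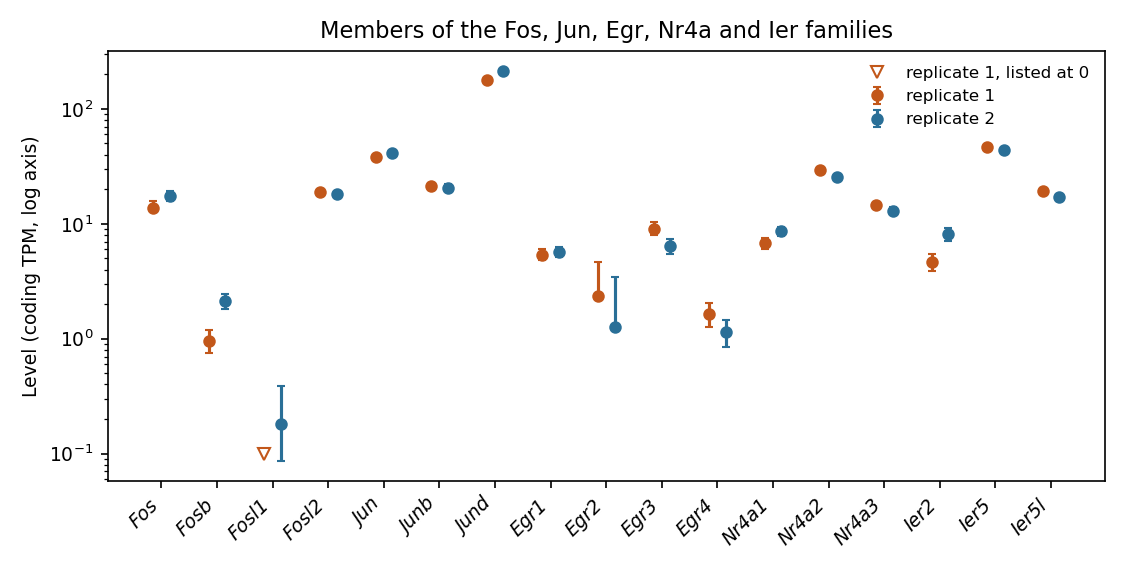
Level in coding TPM (log axis) of the genes of the Fos, Jun, Egr, Nr4a and Ier families in replicate 1 and replicate 2, with the deposited TPM bounds as bars (an arm without length means that the bound lies beyond the point). Jund is highest at 179 and 214 coding TPM, and Fosl1, drawn as an open triangle at the foot of the axis in replicate 1, was listed at 0 there.

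Arc and Npas4 are members whose induction is largely neuronal. Arc was above the median of the members in replicate 1 and below it in replicate 2, and Npas4 was below it in both. Arc (chromosome 15, 74669083 to 74672570, minus strand), whose mRNA travels to dendrites, had 555 and 471 counts and 9.01 and 7.04 coding TPM. Npas4 (chromosome 19, 4984355 to 4990316, minus strand), which responds to calcium entry and shapes inhibitory synapses, had 202 and 235 counts and 3.03 and 3.27 coding TPM. Npas4 stood at 0.336 and 0.465 times the level of Arc. For scale, pan-neuronal markers in the same libraries (Map2, Tubb3, Stmn2, Dcx, Rbfox3 and Snap25) had medians of 403 and 414 coding TPM.

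Ordered by mean level, the members ran Jun (39.7 ± 2.21 coding TPM), Junb (20.96 ± 0.431), Fosl2 (18.6 ± 0.494), Fos (15.5 ± 2.55), Arc (8.02 ± 1.39), Nr4a1 (7.69 ± 1.26), Ier2 (6.41 ± 2.49), Egr1 (5.56 ± 0.233), Npas4 (3.15 ± 0.171) and Fosb (1.55 ± 0.830; SD, n = 2 libraries each). Of the 9 pairs of neighbours in this order, 7 had the same order in both libraries. In 5 pairs the gap exceeded the summed SDs and the deposited bounds were separate in both libraries, namely Jun over Junb, Junb over Fosl2, Fos over Arc, Egr1 over Npas4 and Npas4 over Fosb. Fosl2 and Fos, Arc and Nr4a1, Nr4a1 and Ier2, and Ier2 and Egr1 did not differ beyond their spread. With 1 condition, likeness between genes could be taken only from their levels. The protein-coding genes nearest to Fos on the log2(coding TPM + 0.1) scale over both libraries were Grrp1 (13.7 and 17.6 coding TPM), Atf6 (13.9 and 17.4) and E2f5 (13.9 and 17.3), out of 21473 compared.

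**Figure D3:**
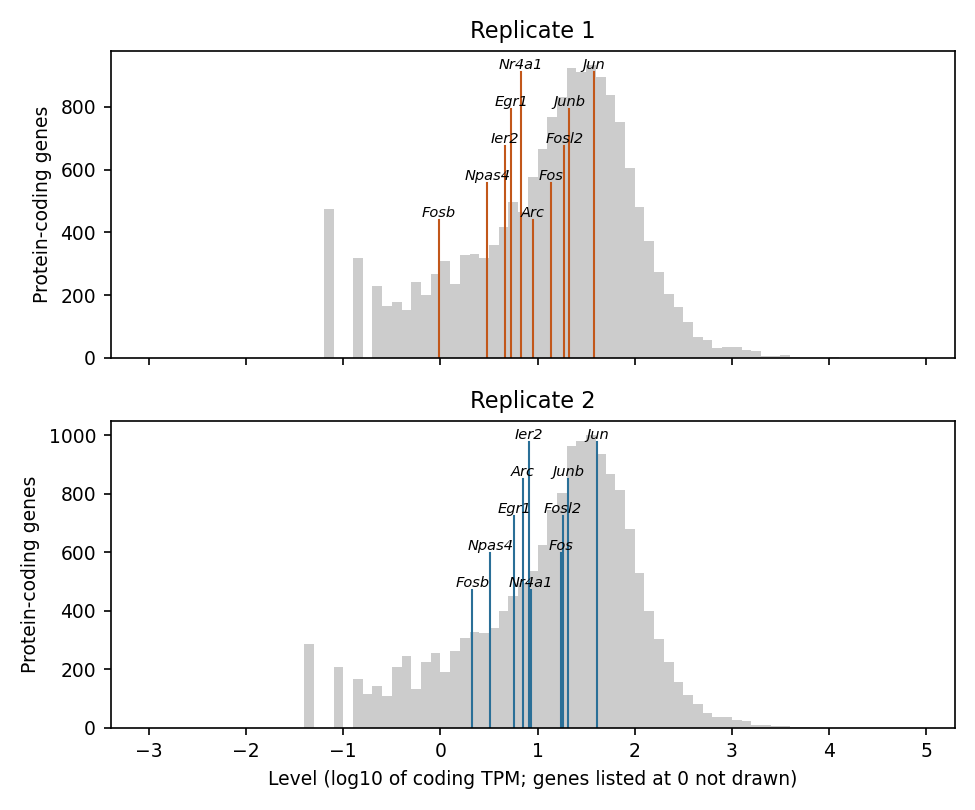
Distribution of the levels of protein-coding genes (log10 of coding TPM) in replicate 1 and replicate 2, with the height of grey bars giving the number of genes and coloured lines the position of each member. Line heights carry no value. Jun lies above 75.8 and 76.0% of protein-coding genes and Fosb above 35.1 and 38.5%.

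Between the libraries, most members differed little, and those that differed most were Fosb and Ier2, lower in replicate 1, and Arc, higher in replicate 1. Ratios are log2 of replicate 1 over replicate 2, from rounded counts after TMM scaling, with an exact binomial interval at the 95% level. With 1 library a side there is no replicate check and no p-value, and the intervals cover only the counting error of reads. Amplified reads that carry no molecular identifier need not be separate molecules, so the intervals may be too narrow even for that. None of the 10 members, all of which passed the filter of a mean of 10 counts, reached 2-fold, against 11.0% of 17544 genes. All 10 members also had a mean of at least 100 counts, and of the 13681 such genes only 2.77% reached 2-fold. At 1.5-fold 2 members passed, against 22.4% of the 17544 genes. The members' median ratio was 0.05 and that of all genes tested was 0.00. In bulk tissue, fewer cells of a type and less RNA per cell cannot be told apart in these ratios.

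Fosb had a log2 ratio of -0.99 (interval -1.41 to -0.60), so it was 1.99 times as high in replicate 2, just under the 2-fold threshold. Scaled by library totals its ratio was -1.19, and as a ratio of coding TPM it was -1.15, which passed 2-fold. Ier2 had a log2 ratio of -0.64 (interval -0.96 to -0.33). Arc had 0.52 (interval 0.34 to 0.70), and the intervals of Junb and Fosl2, both at 0.21, also lay above 0, though with library totals both ratios were 0.01. The intervals of Jun (0.04), Egr1 (0.05), Npas4 (0.06), Fos (-0.04) and Nr4a1 (-0.18) included 0. The sign of Jun, Egr1 and Npas4 depended on scaling, since library totals and coding TPM each put them below 0. The coding TPM scale moves the median of all genes to -0.15, and relative to that shift 4 members were lower in replicate 1, the same number as after TMM scaling.

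**Figure D4:**
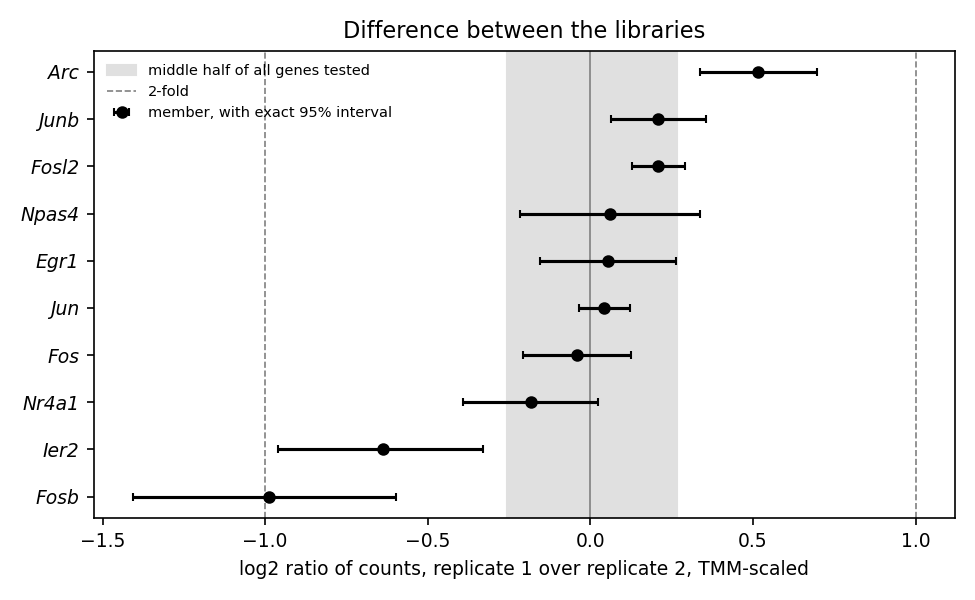
Log2 ratio of counts of each member, replicate 1 over replicate 2 after TMM scaling, with exact 95% intervals as bars. The grey band spans the central 50% of all genes tested, from -0.26 to 0.27, and dashed lines mark 2-fold. Fosb and Ier2 lie left of the band and Arc lies right of it.

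The isolates also differed in markers of cell types, given here because several members are inducible in non-neuronal cells. Of 5 meningeal fibroblast genes, 3 were at least 2-fold lower in replicate 1 (Col1a1, Col1a2 and Lum), and their summed level was 279 coding TPM in replicate 1 and 761 in replicate 2. Of 6 pericyte and smooth muscle genes, 1 was lower by 2-fold (Acta2), with sums of 90.8 and 131, and of 6 endothelial genes none was, with sums of 221 and 283. The 6 neuronal markers summed to 6068 and 5988, the 6 telencephalic factors, all of them above 1 coding TPM, to 416 and 347, and the 6 radial glial and astrocyte genes to 2114 and 2115, with none past 2-fold. The 5 oligodendrocyte precursor genes (sums 223 and 199) had none past 2-fold, the 6 microglial genes (180 and 190) had 1, Aif1, higher in replicate 1, and the 5 erythroid genes (2511 and 1812) had 1, Hbb-bt, higher in replicate 1. Over all 17544 genes tested 11.0% were past 2-fold, so 0 or 1 gene in lists this short says little. All 6 endothelial and all 5 meningeal fibroblast genes had a log2 ratio below 0, and all 5 erythroid genes one above 0. These signs held with library totals, and each other marker list held both signs. No gene of these lists was at 0 in both libraries. The part of these cell types in the ratios of Fosb, Ier2 and Arc was not tested.

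Transcript tables resolved little beyond the gene level, because 7 of the 10 members had a single transcript in the annotation the authors used. Fos was carried mainly by Fos-201, the transcript that encodes the full protein, with 92.4 and 82.9% of the gene's TPM. The rest went to short transcripts annotated as processed and without a coding sequence, Fos-204 with 7.62% in replicate 1, and Fos-202 and Fos-203 with 13.05 and 4.01% in replicate 2. These shares rest on 13.5 counts of Fos-204 and on 19.7 and 8.79 counts of Fos-202 and Fos-203. By counts, Fos-201 held 97.5 and 95.7%.

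Egr1 was divided in a like way in both libraries, with 85.8 and 81.9% in Egr1-202 and the rest in Egr1-201, and both encode a protein of 533 residues. Arc was not: Arc-201 held 100% in replicate 1 and 31.5% in replicate 2, where Arc-202 held 68.5%. The Arc transcripts are 3055 and 3054 nt long, encode the same 396 residues and differ by only 3 exonic bases present in Arc-201 alone and 2 in Arc-202 alone. The deposited posterior SD of each Arc transcript count was 46.0 in replicate 1 and 49.7 in replicate 2. The gene total of Arc does not depend on this division.

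Fosb could not be divided into its long and short protein forms. GENCODE M21 has 6 protein-coding Fosb transcripts, which encode 201 to 338 residues, and the tables used here hold 1 of them, Fosb-201, of 338 residues. The shorter ones, among them Fosb-206 of 237 residues, are not analysed here. The Fosb level given above is therefore that of reads assigned to Fosb-201.

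**Figure D5:**
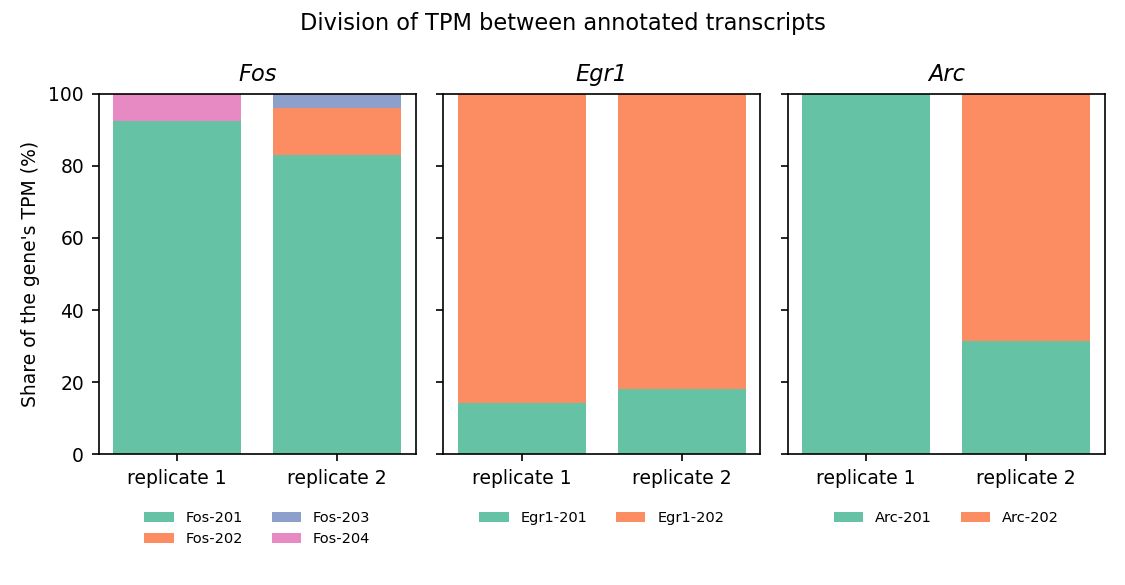
Share of each gene's TPM (%) held by each annotated transcript of Fos, Egr1 and Arc in replicate 1 and replicate 2, as stacked bars. Fos-201 holds 92.4 and 82.9% and Egr1-202 85.8 and 81.9%, whereas Arc-201 holds 100 and 31.5%.

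Other early response genes had higher medians than the members. Of 44 other early response genes, 42 reached 1 coding TPM in both libraries, with medians of 14.3 and 13.6. The highest were Plk2, a kinase that weakens excited synapses (284 and 231 coding TPM), Jund, and Mcl1, an inhibitor of apoptosis (129 and 130), and the lowest was Fosl1. Of the 43 that passed the count filter, 1 was past 2-fold between the libraries, against 11.0% of all 17544 genes tested. It was Atf3, a stress-induced factor, at 1.48 and 0.590 coding TPM with a log2 ratio of 1.43 (interval 0.74 to 2.18). Late response genes, which immediate early factors help to induce in neurons, had medians of 14.9 and 12.2 coding TPM over 10 genes. Of these, Scg2, a secretory granule protein, had 151 and 170, Vgf, a neuropeptide precursor, 80.3 and 111, Nrn1, a surface protein of growing neurites, 48.5 and 55.4, and Ptgs2, the inducible cyclooxygenase, 0.222 and 0.227. Only Inhba of this list passed 2-fold, at 3.25 and 1.27 coding TPM, with a log2 ratio of 1.54 (interval 0.99 to 2.14).

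The factors and kinases that act upstream of the members also had higher medians than the members. The 13 upstream transcription regulators had medians of 38.8 and 48.3 coding TPM and all reached 1 coding TPM. Mef2c was highest at 298 and 167, followed by Mef2a at 53.0 and 66.1 and Creb1 at 42.4 and 72.0, and Elk3, an SRF partner, was lowest at 4.95 and 8.40. The 12 kinase and calcium signalling genes had medians of 70.5 and 86.3, with the calcineurin subunit gene Ppp3ca at 217 and 208 and the kinase gene Rps6ka3 lowest at 17.3 and 20.2. None of the genes on either list passed 2-fold, against 11.0% of all 17544 genes tested.

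Of 9 AP-1 partner genes, 6 reached 1 coding TPM in both libraries, with medians of 12.8 and 9.49. Jund led, followed by Atf4 (152 and 150) and Atf2 (71.6 and 105), and Fosl1 was lowest by the mean, although Batf was listed at 0 in replicate 2. Of the 7 that passed the count filter, Atf3 alone passed 2-fold, against 11.0% of all 17544 genes tested. The 8 mRNA decay factors had medians of 31.9 and 40.8 and none past 2-fold. Eif4a3, a core protein of the exon junction complex that marks Arc mRNA for decay, was highest (181 and 186), followed by the AU-rich element binding proteins Khsrp (42.2 and 58.2) and Hnrnpd (40.5 and 52.3), and Zfp36, which binds the same elements and is itself an early response gene, was lowest (4.21 and 6.13). The 8 heat shock and stress genes had medians of 9.16 and 13.4 and none past 2-fold, with the cochaperone gene Dnajb1 at 60.0 and 52.2, Hsph1 at 34.3 and 34.1, Ddit3 at 19.3 and 25.3 and the DNA damage gene Gadd45a at 4.65 and 7.58.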

How the data were processed

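The authors deposited gene and transcript tables for each library, quantified on mm10 with GENCODE M4 from that library's own alignments, per the file headers and the notes deposited beside them. The aligner, the quantifier and the strand setting of the counting step are not stated in those sources. The deposited expected counts are fragment counts estimated per feature. The deposited TPM values are scaled over every row of the table, including spike-in controls and small noncoding RNAs, and the deposited FPKM values by length and depth. The deposited percent values give each transcript's share of its gene's TPM, and the deposited TPM bounds were treated as a score of unstated level.

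Symbols, biotypes and positions came from GENCODE M21 by identifier, which matched 42462 of 43346 genes. TPM was rescaled to the protein-coding sum by factors of 7.38 and 4.54. Expected counts were rounded, 0.5 was added for ratios, and TMM factors came from edgeR 4.0.16 (R 4.3.3), with DESeq2 1.42.0 size factors as an alternative, in the 17544 genes whose mean was 10 counts or more. Other steps used Python 3.11.15, pandas 2.3.3, scipy 1.17.1, numpy 2.4.6 and matplotlib 3.10.9. No test between conditions was possible. The ratio step was tested on simulated data. The members and gene lists were chosen with earlier results of these data known. TATAAA and the AU-rich elements were added after the design was set. Named genes were all members, their family relatives (chosen by family, after some values were seen), and of each list the 3 highest, the lowest and those past 2-fold; some genes this rule names are not reported here. Alternatives were other units, thresholds, scalings, filters, posterior means and leaving out each library.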

Additional observations from a re-analysis of the deposited data

How the results depend on the processing

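The members' median level was 8.14 coding TPM as the mean over libraries, 1.46 in deposited TPM, 2.915 in FPKM and 8.52 without mitochondrially encoded genes in the coding sum, and 7.90 to 8.38 with either library left out. Of the members, 9 reached 1 coding TPM, but 5 reached 1 in deposited TPM. The median of other early response genes was 13.9, and 2.47 in deposited TPM. No member passed 2-fold in the main setting, 1 (Fosb) did with library totals or the ratio of coding TPM, and 2 (Fosb and Ier2) at 1.5-fold. Genes past the fold numbered 1929 (11.0% of 17544), against 5045 (23.6% of 21394) without the count filter. With a mean of at least 100 counts they numbered 379 (2.77% of 13681). At 1.5-fold there were 3932 (22.4% of 17544), and among protein-coding genes alone 1151 (7.58% of 15187). The mean share of Fos-201 was 87.7% of TPM and 96.6% of counts. Of the other 25 alternative values of these summaries, 19 stayed within the replicate SD or within 1.5 times the count. Some of these 19 had little room to move. The count filters and the limit to protein-coding genes could not remove a member, and among members only Fos had noncoding transcripts to leave out. The remaining 6 leave a library out of a level or share, and with 2 libraries they lie within the SD by construction, so they show nothing about stability. A single library gives no ratio, so leaving one out was not run there. No paired analysis was possible because both libraries are in 1 group. Depth limits Fosb most, at 74 and 179 counts.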

Other observations

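Ratios of replicate 1 over replicate 2 within the lists were of both signs. Of 43 other early response genes past the count filter, 25 had a log2 ratio above 0 and 18 below 0 after TMM scaling, with a median of 0.14, and with library totals the split was 18 above and 25 below. The Egr relatives of Egr1 were among those above 0, with 0.89 for Egr2, 0.68 for Egr3 and 0.67 for Egr4. Klf4 (-0.90) and Plk3 (-0.61) were among those below 0. Of 10 late response genes, 2 were above 0 (Inhba and Crem) and 8 below, with a median of -0.15, Bdnf at -0.61 and Gpr3 at -0.75. Of 13 upstream transcription regulators, 2 were above 0 (Mef2c at 0.95 and Srf at 0.05) and 11 below, with a median of -0.18. With library totals, an alternative for these splits that was chosen after seeing the data, they were 2 and 8, and 1 and 12. The genes named here beyond the rule were picked after their values were seen, and the ratios compare these libraries only.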
